A study of Mus musculus with 6 samples.

Results

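Messenger RNA levels of 8 genes of platelet-derived growth factor (PDGF) signalling and of pericytes were followed in mid-ventricular heart tissue of mice. They were the ligand genes Pdgfa, Pdgfb, Pdgfc and Pdgfd, the receptor genes Pdgfra and Pdgfrb, and the pericyte marker genes Cspg4 and Abcc9, taken by gene symbol from a table of 49315 genes. All 8 were found, and all 8 were among the 14370 genes with enough reads to be tested. There were 3 libraries labelled TET2KO, from mice with a knockout of Tet2 restricted to endothelial cells, and 3 labelled WT. Tet2 encodes a dioxygenase that oxidises methylated cytosine in DNA. The mice, described as adult, were all on Angiotensin II, a peptide hormone that constricts vessels, which an osmotic minipump under the skin delivered at 1.0 mg/kg/day for 28 days. No heart without Angiotensin II entered any comparison. For the endothelial deletion, its driver and the exons it removes were not given in the sources used here. Each group consists of 3 biological replicates, per the series' design text.

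PDGF ligands are secreted dimers that bind receptor tyrosine kinases on the surface of mesenchymal cells. In growing vessels, endothelial cells release PDGF-B, which heparan sulphate holds close to the vessel and which draws in pericytes carrying PDGF receptor beta. PDGF-A and PDGF-C act mainly through PDGF receptor alpha, which in the adult heart is carried above all by fibroblasts. PDGF-D acts mainly through receptor beta, and PDGF-C and PDGF-D are secreted in a latent form that proteases activate. Pericytes wrap capillaries, and in the heart they are rich in the ATP-sensitive potassium channel subunits encoded by Abcc9 and Kcnj8.

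Levels are CPM, counts brought to the same effective library size, and means carry their SD (n = 3 in each group). A positive log2 fold change means higher in TET2KO than in WT. It is given with its SE, from edgeR's quasi-likelihood test with Benjamini-Hochberg adjustment over all tested genes, and a gene passed at an adjusted p below 0.05. Each library held between 22124844 and 30418909 counted reads. The check of the targeted gene did not bear out the labels. Tet2 stood at 14.6, 8.01 and 10.4 CPM in the libraries labelled TET2KO, against 4.27, 4.33 and 3.08 CPM in those labelled WT (edgeR log2 fold change 1.49 ± 0.29, adjusted p = 0.0065). Heart tissue also holds Tet2 RNA of cells other than endothelial ones, so this check cannot decide whether the labels are right. Every direction below is therefore that of the labels. The fold change of all genes followed transcript length, with a median of -1.29 in the shortest of 10 length classes of like gene number and 1.38 in the longest. A second fit took a smooth dependence on length and GC content out of each library, and its result is given beside the first as the trend-removed value. Tet2, among the genes with the longest transcripts, did not pass in that fit (0.27 ± 0.17, edgeR adjusted p = 0.21). Whether this dependence is technical was not tested. TET2KO replicate 2 stood apart from the other 2 TET2KO libraries, and for 7 of the 8 genes, all except Pdgfc, its CPM was the TET2KO value nearest to the WT mean. Results are therefore also given without it.

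As counted, 4 of the 8 genes were higher in the libraries labelled TET2KO (Pdgfb, Pdgfra, Pdgfrb and Abcc9), 1 was lower (Pdgfd) and 3 did not pass (Pdgfa, Pdgfc and Cspg4). Among all tested genes 62.9% passed, 33.4% higher and 29.4% lower, so 5 of 8 is close to the share of all genes. The median log2 fold change was 1.17 over the 8 genes and 0.046 over all genes. The median transcript length of the 8 was 4472 nt, in a length class with a median log2 fold change of 0.66 and 51.3% of genes higher. CPM of the groups did not overlap for 6 of the 8, against 73.5% of all tested genes. After trend removal Pdgfa, Pdgfb, Pdgfrb and Abcc9 were higher and Pdgfc and Cspg4 lower, with Pdgfd and Pdgfra not past the test. There the background was 46.2%, with 21.9% of genes higher and 24.3% lower. Trend-removed CPM of the groups did not overlap for 7 of the 8 genes, all except Pdgfra, against 59.3% of all genes. The median trend-removed log2 fold change was 0.16 over the 8 genes and -0.030 over all genes. Pdgfb, Abcc9 and Pdgfrb were thus higher in both fits, and Cspg4 and Pdgfra had opposite signs in them, past the test for Cspg4 in the trend-removed fit and for Pdgfra in the counted one. Without TET2KO replicate 2 all 8 genes passed as counted, 6 higher and 2 lower, where 75.1% of all genes passed, 39.8% higher and 35.3% lower. Without it and with the trend removed, 4 were higher and 3 lower, where 58.3% of all genes passed, 27.8% higher and 30.5% lower.

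**Figure D1:**
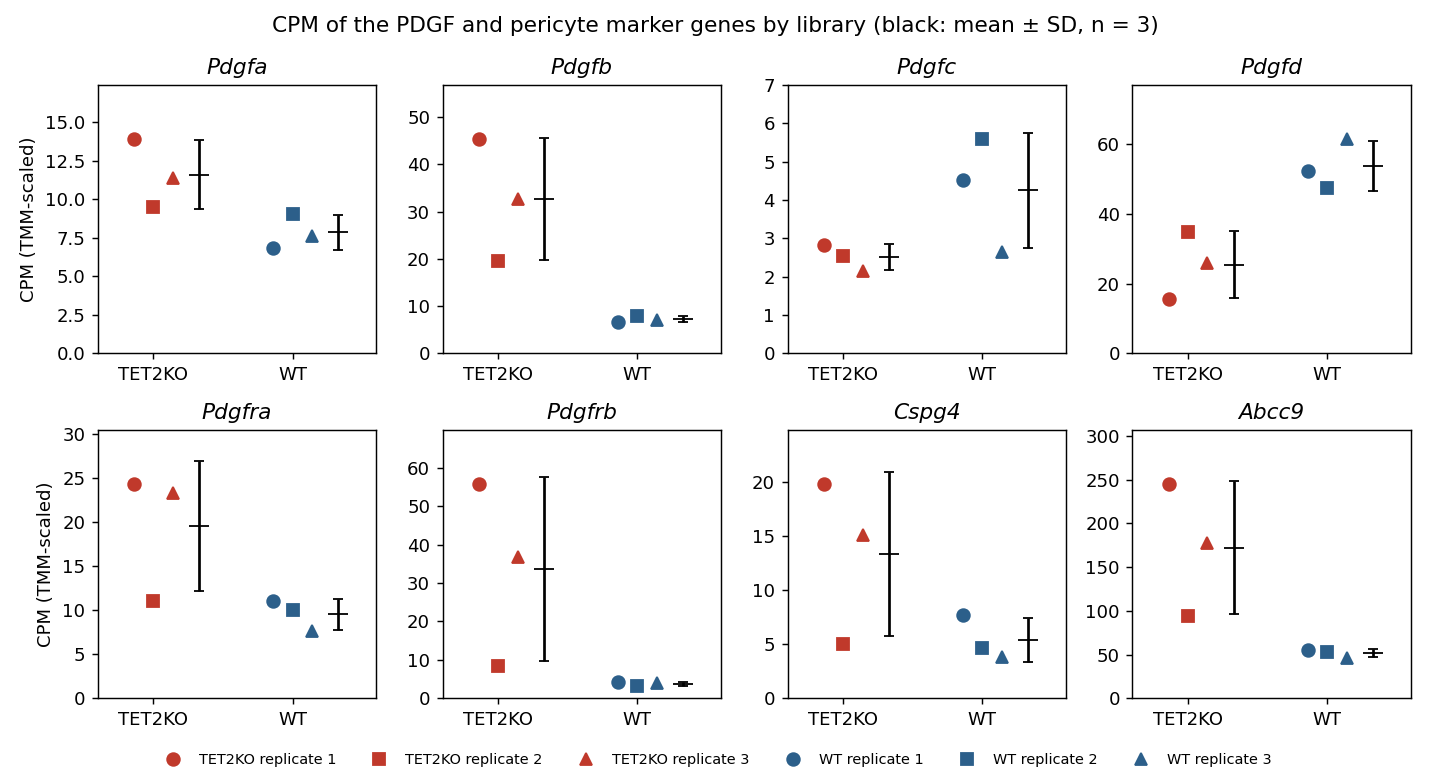
CPM (vertical axes, each from 0) of the 8 genes in the 3 TET2KO libraries (red, left) and the 3 WT libraries (blue, right), with the marker shape giving the replicate and black bars the mean ± SD. Pdgfb, Pdgfrb and Abcc9 are higher in each TET2KO library than in any WT library, Pdgfd is lower in each, and TET2KO replicate 2 lies nearest to WT for 7 of the genes, all except Pdgfc.

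Among the ligands, Pdgfb was raised 4.53-fold in the libraries labelled TET2KO. Pdgfb (ENSMUSG00000000489, GRCm38 chromosome 15, 79995874 to 80014977, minus strand, protein coding) encodes the B chain, the main endothelial signal to pericytes. Its level was 45.5, 19.7 and 32.7 CPM in TET2KO replicates 1, 2 and 3, against 6.67, 7.93 and 6.999 CPM in WT. The lowest TET2KO library was thus well above the highest WT library, and the WT libraries lay close together. The means were 32.6 ± 12.9 CPM in TET2KO and 7.20 ± 0.65 CPM in WT (edgeR log2 fold change 2.18 ± 0.31, 95% interval 1.47 to 2.89, adjusted p = 0.0065). The trend-removed log2 fold change was smaller, at 0.82 ± 0.13, and passed (edgeR adjusted p = 0.0040). Trend-removed CPM was 21.9, 18.8 and 18.7 in TET2KO, against 10.6, 11.9 and 11.1 in WT, so that TET2KO replicate 2 no longer stood apart for this gene. In whole tissue, more cells of a type and more RNA per cell cannot be told apart. Pan-endothelial markers were mostly higher in the same libraries (10 of 13 higher, 3 lower), with a summed level of 655 to 1178 CPM in TET2KO and 578 to 628 CPM in WT. Of all tested genes 33.4% were higher and 29.4% lower as counted. After trend removal 7 of the 13 markers were higher and 1 lower, against 21.9% and 24.3% of all genes. All 6 tested markers of platelets, another source of PDGF, and of red cells were lower as counted (summed level 163 to 724 CPM in TET2KO and 1540 to 6799 CPM in WT). Globin genes make up nearly all of that sum. Of the platelet genes, Pf4 averaged 15.2 CPM in TET2KO and 38.0 CPM in WT and did not pass after trend removal (-0.015 ± 0.13), and levels of Ppbp overlapped between the groups. Itga2b, named after its values were seen, averaged 1.08 CPM in TET2KO and 2.60 CPM in WT. It was lower in both fits (edgeR log2 fold change -1.27 ± 0.37, trend-removed -2.61 ± 0.44). The part of endothelial cells or of platelets in the Pdgfb result was not tested.

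Pdgfa did not pass the test as counted and was higher after trend removal. Pdgfa (ENSMUSG00000025856, chromosome 5, 138976014 to 138997370, minus strand) encodes the A chain, a ligand of receptor alpha. It stood at 13.95, 9.51 and 11.4 CPM in TET2KO and 6.87, 9.08 and 7.62 CPM in WT. The groups did not overlap, but TET2KO replicate 2 lay just above WT replicate 2. The log2 fold change was 0.56 ± 0.22 (95% interval 0.047 to 1.08, edgeR adjusted p = 0.056). After trend removal it was 0.84 ± 0.21 (edgeR adjusted p = 0.013), which was lost without WT replicate 1 (0.73, adjusted p = 0.062) or WT replicate 3 (0.79, adjusted p = 0.055). Without TET2KO replicate 2 the log2 fold change as counted was 0.71, past the test (edgeR adjusted p = 0.0033). An antisense gene, 6330403L08Rik, shares 813 exonic bases with Pdgfa and held 690, 184 and 366 reads in TET2KO, against 46, 49 and 43 in WT. With the strand setting of the counting (not given in the sources used here) unknown, reads of this pair cannot be told apart.

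The ligands that need proteolytic activation had negative log2 fold changes, past the test for Pdgfd. Pdgfd (ENSMUSG00000032006, chromosome 9, 6168584 to 6378850, plus strand), a ligand of receptor beta, stood at 15.5, 34.8 and 25.9 CPM in TET2KO and 52.5, 47.5 and 61.7 CPM in WT. Each TET2KO library was below each WT library. It averaged 25.4 ± 9.65 CPM in TET2KO and 53.9 ± 7.18 CPM in WT, and it was the gene of the 8 that fell as counted (edgeR log2 fold change -1.08 ± 0.29, 95% interval -1.75 to -0.42, adjusted p = 0.014). The trend-removed log2 fold change of Pdgfd was -0.39 ± 0.17 and did not pass (edgeR adjusted p = 0.089). The call as counted was also lost without WT replicate 3 (-0.98, adjusted p = 0.058) and when libraries were scaled by their total alone (-0.66, adjusted p = 0.053), a scaling that moved the median of all genes to 0.47. On log2(TPM + 1) values it was lost too (-0.49, limma adjusted p = 0.077). Pdgfd passed without TET2KO replicate 2, both as counted (-1.36, edgeR adjusted p = 5.99e-06) and with the trend removed (-0.48, adjusted p = 0.0195).

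Pdgfc (ENSMUSG00000028019, chromosome 3, 81036416 to 81214040, plus strand), a latent ligand of receptor alpha, had the fewest reads of the ligands, 105, 76 and 68 in TET2KO and 94, 137 and 47 in WT. Its levels of 2.83, 2.54 and 2.16 CPM in TET2KO overlapped those of 4.51, 5.60 and 2.63 CPM in WT. The widest spread was among the WT libraries. The log2 fold change of -0.76 ± 0.32 did not pass (95% interval -1.5 to -0.029, edgeR adjusted p = 0.066), and it passed without TET2KO replicate 2 (-0.76, adjusted p = 0.032) or without WT replicate 3 (-1.02, adjusted p = 0.036). After trend removal Pdgfc was lower at -1.20 ± 0.28 (edgeR adjusted p = 0.0088). In all 9 fits with a trend removed it was lower, whereas on log2(TPM + 1) values the difference was -0.056 (limma adjusted p = 0.83).

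The promoters of Pdgfa, Pdgfc and Pdgfd differed in their density of CG dinucleotides, the sites of DNA methylation that Tet2 acts on. Pdgfb, the ligand gene with the largest difference as counted, had no promoter window in the source used, and neither had Pdgfrb. DNA methylation was not measured here. The stretches below are the parts of the 250 bases upstream of a start site, from RefSeq on GRCm38.p6, that lie outside annotated exons of the gene, printed 5′ to 3′ on the strand of the gene with each CG in capitals. They were chosen with the fold changes known: after trend removal Pdgfa was higher, Pdgfc was lower and Pdgfd did not pass.
Pdgfa, upstream start site, chr5:138995038-138995194, minus strand: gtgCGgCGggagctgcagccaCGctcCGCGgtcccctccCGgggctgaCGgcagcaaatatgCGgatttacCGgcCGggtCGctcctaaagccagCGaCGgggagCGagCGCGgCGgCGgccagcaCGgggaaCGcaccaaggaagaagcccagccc
Pdgfc, chr3:81036166-81036415, plus strand: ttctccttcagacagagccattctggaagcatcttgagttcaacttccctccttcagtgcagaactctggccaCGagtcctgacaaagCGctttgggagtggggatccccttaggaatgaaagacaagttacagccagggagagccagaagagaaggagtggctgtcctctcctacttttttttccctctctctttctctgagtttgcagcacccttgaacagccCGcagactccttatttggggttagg
Pdgfd, chr9:6168236-6168485, plus strand: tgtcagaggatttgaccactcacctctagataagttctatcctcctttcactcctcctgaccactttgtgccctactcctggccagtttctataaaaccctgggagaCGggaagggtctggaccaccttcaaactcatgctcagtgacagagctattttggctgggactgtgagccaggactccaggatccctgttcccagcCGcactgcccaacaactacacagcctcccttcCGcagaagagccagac
The full 250 bases held 28 CG dinucleotides at the upstream start of Pdgfa and 19 at its other start, against 3 at Pdgfc and 3 at Pdgfd. The window of Pdgfra, a receptor gene whose stretch is not printed, held 4. Over 32851 such windows of 27025 genes the median was 6, with quartiles of 2 and 16, so the Pdgfa windows lie above the upper quartile and those of Pdgfc and Pdgfd below the median. The letters TATAAA, searched on both strands like the next motifs, occur in the Pdgfd window, at tataaa in the printed stretch, and in 12.4% of all windows. GGGCGG, the letters of a GC box, occurs in both Pdgfa windows and in 32.7% of all windows. GGAAGT, an ETS-type core, occurs in the Pdgfc window and in 19.7% of all windows. These matches describe the letters of the windows.

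Of the receptors, Pdgfrb showed the largest difference among the 8 genes, 8.78-fold higher in the libraries labelled TET2KO. Pdgfrb (ENSMUSG00000024620, chromosome 18, 61045150 to 61085061, plus strand) encodes PDGF receptor beta, which pericytes need to attach to vessels. It held 2068, 252 and 1160 reads in TET2KO replicates 1, 2 and 3, against 88, 80 and 72 reads in WT. Scaled, this was 55.8, 8.41 and 36.8 CPM in TET2KO and 4.23, 3.27 and 4.03 CPM in WT. The groups did not overlap, yet TET2KO replicate 1 was several times higher than TET2KO replicate 2, a wider spread than within WT. The means were 33.7 ± 23.9 CPM in TET2KO and 3.84 ± 0.50 CPM in WT (edgeR log2 fold change 3.13 ± 0.62, 95% interval 1.7 to 4.57, adjusted p = 0.0065). The trend-removed log2 fold change was 1.23 ± 0.31 (edgeR adjusted p = 0.013), with 20.8, 8.47 and 17.9 trend-removed CPM in TET2KO against 7.19, 5.61 and 7.53 in WT. It was 1.11 without WT replicate 2, where it narrowly missed the threshold (edgeR adjusted p = 0.051), and 1.54 without TET2KO replicate 2 (adjusted p = 2.7e-07).

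Pdgfra was higher as counted and did not differ past the test after trend removal. Pdgfra (ENSMUSG00000029231, chromosome 5, 75152292 to 75198215, plus strand) encodes PDGF receptor alpha, a marker of cardiac fibroblasts. It stood at 24.4, 11.1 and 23.3 CPM in TET2KO and 11.04, 10.01 and 7.62 CPM in WT. TET2KO replicate 2 was level with WT replicate 1, and the other 2 TET2KO libraries were well above WT. The log2 fold change was 1.03 ± 0.32 (95% interval 0.30 to 1.78, edgeR adjusted p = 0.024). The call was lost when any library other than TET2KO replicate 2 was left out. The edgeR adjusted p was then 0.0502 without TET2KO replicate 1 (log2 fold change 0.88) and 0.078 without TET2KO replicate 3 (0.94). It was 0.054, 0.066 and 0.093 without WT replicates 1, 2 and 3 (1.14, 1.06 and 0.89). Without TET2KO replicate 2 it was 1.33 (edgeR adjusted p = 3.2e-06). The trend-removed log2 fold change turned to -0.23 ± 0.16 (edgeR adjusted p = 0.26), and the trend-removed levels overlapped, at 11.8, 11.1 and 14.1 CPM in TET2KO and 16.3, 14.3 and 12.6 CPM in WT. Of 12 other fibroblast markers, 7 were higher and 5 lower as counted, and 3 were higher and 1 lower after trend removal, while their summed level of 1829 to 2074 CPM in TET2KO overlapped that of 1906 to 2000 CPM in WT.

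Of the pericyte marker genes, Abcc9 was 3.35-fold higher. Abcc9 (ENSMUSG00000030249, chromosome 6, 142587862 to 142702315, minus strand) encodes the sulphonylurea receptor SUR2, which joins with Kir6 pore subunits and is made by pericytes, smooth muscle and, in the heart, by cardiomyocytes as well. It stood at 245, 94.6 and 178 CPM in TET2KO and 55.2, 52.9 and 46.4 CPM in WT, the highest CPM of the 8 genes in the TET2KO libraries. Each TET2KO library lay above the WT range, and replicate 2 was the lowest of them. The means were 172.5 ± 75.5 CPM in TET2KO and 51.5 ± 4.57 CPM in WT (edgeR log2 fold change 1.74 ± 0.33, 95% interval 0.98 to 2.51, adjusted p = 0.0065). The trend-removed log2 fold change of Abcc9 was 0.55 ± 0.13 and passed (edgeR adjusted p = 0.0094). With the length of all exons merged in place of that of the longest transcript it was 1.09. Of 8 cardiomyocyte markers 4 were higher and 3 lower, with a summed level of 45260 to 48810 CPM in TET2KO and 58550 to 72320 CPM in WT, and their part in the Abcc9 result was not tested. The lower sum is carried by Myl2 (10310 CPM in TET2KO and 32060 CPM in WT on average), while Myh6 was higher (7592 CPM in TET2KO and 695 CPM in WT), and after trend removal 5 of the 8 were higher and 1 lower.
The stretch upstream of the Abcc9 start site, shown as the counterpart of the ligand promoters for a gene that was higher in both fits, held 12 CG dinucleotides in 250 bases, as many as that of Cspg4.
Abcc9, chr6:142702316-142702524, minus strand: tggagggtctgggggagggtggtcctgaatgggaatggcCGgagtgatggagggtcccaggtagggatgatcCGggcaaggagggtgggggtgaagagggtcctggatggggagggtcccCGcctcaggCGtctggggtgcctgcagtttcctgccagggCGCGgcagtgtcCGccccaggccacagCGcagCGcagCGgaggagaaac

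The direction of Cspg4 turned with trend removal, past the test in that fit. Cspg4 (ENSMUSG00000032911, chromosome 9, 56865033 to 56899870, plus strand) encodes NG2, a surface proteoglycan of pericytes, and had the longest transcript of the 8 genes, 8121 nt. It stood at 19.8, 5.004 and 15.1 CPM in TET2KO and 7.73, 4.66 and 3.81 CPM in WT. TET2KO replicate 2 lay inside the WT range, and the other 2 TET2KO libraries lay above it. The log2 fold change of 1.30 ± 0.50 did not pass (95% interval 0.14 to 2.46, edgeR adjusted p = 0.052), and without TET2KO replicate 2 it was 1.71, past the test (adjusted p = 7.9e-06). In the class of genes with the longest transcripts the median was 1.38, close to the value of Cspg4. After trend removal Cspg4 was lower in the libraries labelled TET2KO, at -1.11 ± 0.24 (edgeR adjusted p = 0.0072), with 4.80, 6.02 and 5.27 trend-removed CPM in TET2KO against 16.1, 9.98 and 8.29 in WT. It was lower in all 9 fits with a trend removed and higher in 7 of the 14 others. Cspg4 and Pdgfra also mark oligodendrocyte precursors in the brain, and Olig1 and Olig2, genes of those cells, had 0 reads in every library. In heart tissue this does not tell which cells held Cspg4 or Pdgfra RNA, and that was not tested.

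**Figure D2:**
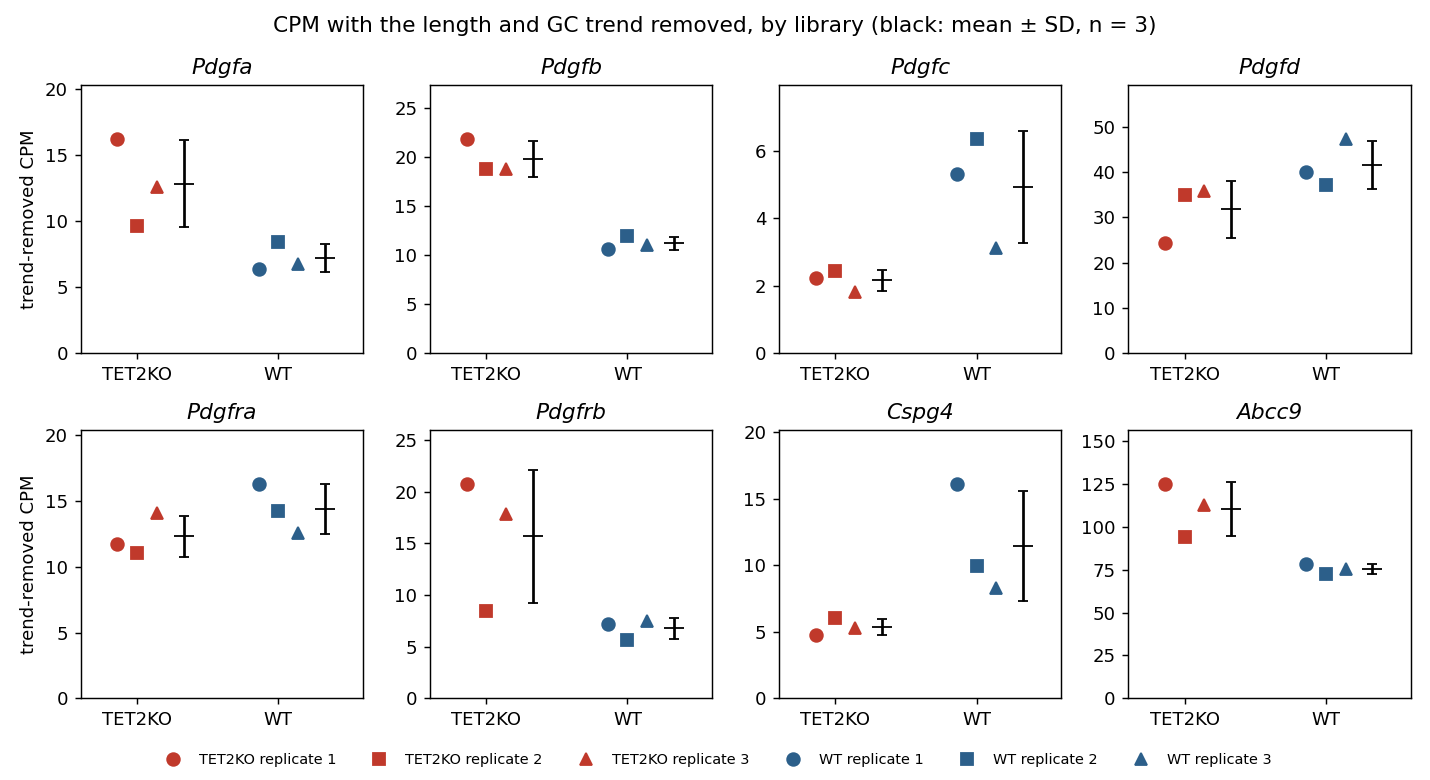
CPM after removal of the length and GC trend (vertical axes, each from 0) of the 8 genes in the 3 TET2KO libraries (red, left) and the 3 WT libraries (blue, right), with black bars for the mean ± SD. Pdgfb, Pdgfa, Pdgfrb and Abcc9 are higher in TET2KO, Pdgfc and Cspg4 lower, and the Pdgfra groups overlap.

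The position of each gene against others of like length is shown by the plot of fold change against transcript length. Pdgfa, at 2060 nt, lay in a length class whose median log2 fold change was -0.17, and Pdgfb, at 2944 nt, in a class with a median of -0.022. Both were above those medians, at 0.56 and 2.18. Pdgfd, at 3131 nt, and Pdgfc, at 3521 nt, were below the medians of 0.28 and 0.42 of their classes, at -1.08 and -0.76. Pdgfrb, at 5423 nt, was above the median of 1.02 of its class, while Pdgfra, Cspg4 and Abcc9 lay in the class with a median of 1.38, the first 2 of them below it and Abcc9 above it.

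**Figure D3:**
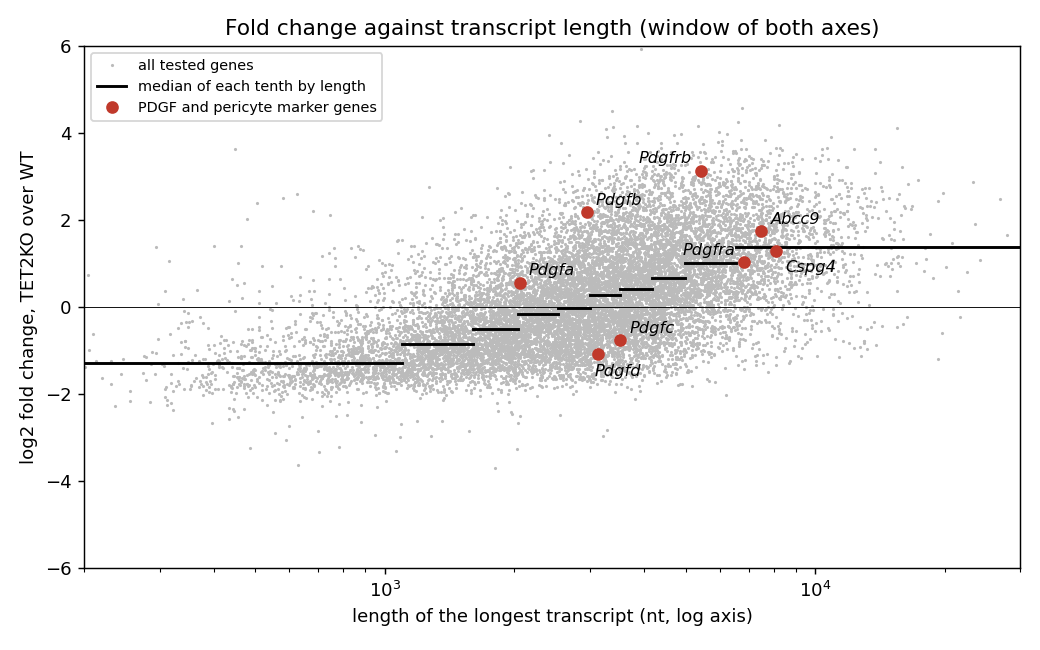
Log2 fold change of TET2KO over WT (vertical axis) against the length of the longest transcript in nt (log axis) for the tested genes, with the median of each of the 10 length classes as a black line and the 8 genes in red. The medians climb from -1.29 in the shortest class to 1.38 in the longest, and Pdgfb and Pdgfrb stand well above the line while Pdgfc and Pdgfd stand below it.

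**Figure D4:**
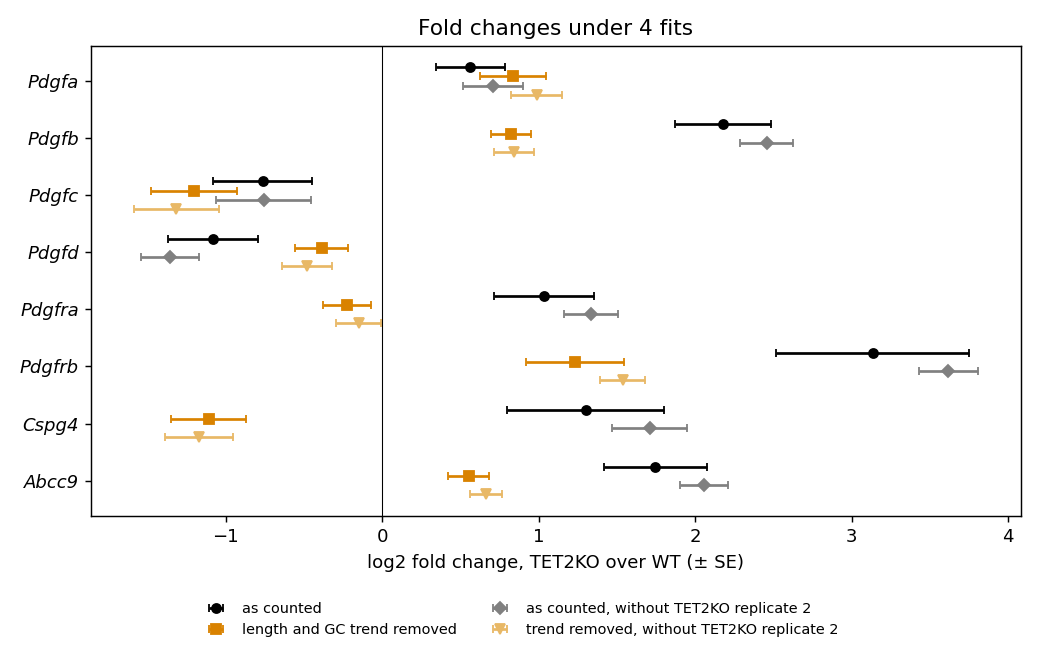
Log2 fold change of TET2KO over WT ± SE (horizontal axis) of the 8 genes in 4 fits, as counted (black), with the length and GC trend removed (orange), and each of these without TET2KO replicate 2 (grey and light orange). Pdgfb, Pdgfrb and Abcc9 stay right of 0 in all 4, Pdgfc and Pdgfd stay left, and Cspg4 and Pdgfra change side with the trend.

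Levels of different genes were compared per transcript length, in the deposited TPM. In the libraries labelled TET2KO the order of mean TPM was Abcc9 (51.9 ± 27.0), Pdgfb (28.1 ± 13.6), Pdgfd (19.3 ± 5.69), Pdgfrb (15.7 ± 12.1), Pdgfa (9.24 ± 2.67), Pdgfra (4.89 ± 2.15), Cspg4 (2.83 ± 1.79) and Pdgfc (1.21 ± 0.26). There, only Pdgfa and Pdgfra were neighbours whose ranges over the libraries did not overlap. In the libraries labelled WT the order was Pdgfd (26.7 ± 1.51), Abcc9 (9.72 ± 1.47), Pdgfa (3.99 ± 0.88), Pdgfb (3.90 ± 0.66), Pdgfra (1.51 ± 0.35), Pdgfc (1.34 ± 0.57), Pdgfrb (1.10 ± 0.089) and Cspg4 (0.71 ± 0.27). Pdgfa and Pdgfb overlapped there, as did Pdgfra with Pdgfc and Pdgfc with Pdgfrb. By TPM, Pdgfd was thus the most abundant ligand transcript in each WT library. Pdgfb exceeded it in TET2KO replicates 1 and 3 (42.1 and 27.1 TPM, against 13.3 and 19.9 TPM for Pdgfd) but not in replicate 2 (15.0 against 24.7 TPM). In trend-removed CPM, not divided by length, Pdgfb lay below Pdgfd in each TET2KO library, as in each WT library. The values in TET2KO replicates 1, 2 and 3 were 21.86, 18.77 and 18.74 for Pdgfb and 24.41, 35.02 and 35.82 for Pdgfd. Transcript lengths were 2944 nt for Pdgfb and 3131 nt for Pdgfd.

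Within a library, the balance of ligands and receptors was compared as ratios of TPM. Of 9 ratios tested with a two-sided exact permutation test, none could fall below p = 0.1 with 3 libraries against 3, and 7 reached it (Benjamini-Hochberg 0.13). The ratio of Pdgfrb to Pdgfra was 4.19, 1.38 and 2.89 in TET2KO and 0.70, 0.60 and 0.97 in WT, so Pdgfrb RNA exceeded Pdgfra RNA in TPM in each TET2KO library and in no WT library. In trend-removed CPM, not divided by length, TET2KO replicate 2 had 8.47 for Pdgfrb and 11.1 for Pdgfra. Replicates 1 and 3 had 20.8 and 17.9 for Pdgfrb, against 11.8 and 14.1 for Pdgfra. The log2 difference of the ratio of Pdgfrb to Pdgfra was 1.79 as counted and 1.35 after trend removal (exact permutation p = 0.1 for each). Pdgfd over Pdgfrb was 0.48, 7.20 and 1.22 in TET2KO and 21.6, 25.2 and 26.6 in WT, a log2 difference of -3.91 (-1.53 after trend removal). Pdgfb over Pdgfrb, the endothelial ligand against the pericyte receptor, overlapped between the groups, at 1.53, 4.39 and 1.67 in TET2KO and 2.97, 4.55 and 3.26 in WT (exact permutation p = 0.3). Pdgfb over Pdgfa was 3.48, 2.21 and 3.08 in TET2KO and 1.04, 0.93 and 0.98 in WT, but the log2 difference of 1.54 shrank to 0.0058 after trend removal (exact permutation p = 1). The ratio of Pdgfrb to Cspg4, of the pericyte surface genes, was 6.14, 3.66 and 5.32 in TET2KO and 1.19, 1.53 and 2.31 in WT.

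The marker lists above and the lists that follow are read against the shares of all tested genes. These were 33.4% higher and 29.4% lower as counted, and 21.9% higher and 24.3% lower after trend removal. Without TET2KO replicate 2 they were 39.8% and 35.3% as counted, and 27.8% and 30.5% with the trend removed. Of 17 other pericyte and mural cell markers tested, 7 were higher and 4 lower, and 6 did not pass, with a median log2 fold change of 0.44, and after trend removal 5 were higher and 2 lower, with a median of 0.38. Without TET2KO replicate 2, 9 were higher and 4 lower as counted, and 12 higher and 3 lower with the trend removed, among them Notch3 (higher) and Higd1b (lower). Without any 1 of the other 5 libraries, 3 to 7 of the 17 passed as counted. Calls over all genes fell in those fits too, to between 6133 and 7284 of 14637 to 14922 tested, against 9037 of 14370 with all 6 libraries. Their summed level was 1205 to 1881 CPM in TET2KO and 2116 to 2360 CPM in WT. Rgs5 alone made up most of that sum, with 837 to 1568 CPM in TET2KO and 1789 to 2016 CPM in WT. Notch3, a Notch receptor of mural cells, rose to 34.3, 4.04 and 24.8 CPM in TET2KO, against 3.31, 2.09 and 2.58 CPM in WT (edgeR log2 fold change 2.99 ± 0.70, adjusted p = 0.0090), and the trend-removed 0.37 ± 0.25 did not pass (adjusted p = 0.26). Kcnj8 and Higd1b, both enriched in pericytes, were lower as counted. Higd1b stood at 7.69, 17.5 and 11.7 CPM in TET2KO and 31.4, 29.0 and 37.1 CPM in WT (edgeR log2 fold change -1.40 ± 0.29, adjusted p = 0.0069), whereas the trend-removed -0.24 ± 0.13 did not pass (adjusted p = 0.16). Rgs5, a regulator of G-protein signalling and the most abundant transcript of the list, chosen for mention after its values were seen, averaged 1161 ± 372 CPM in TET2KO and 1888 ± 117 CPM in WT (edgeR log2 fold change -0.70 ± 0.26, adjusted p = 0.048, trend-removed -0.45 ± 0.15). Kcnj8 and Rgs5 were the 2 markers lower after trend removal. The 5 higher there, also named after their values were seen, were Vtn, Ndufa4l2, Colec11, Steap4 and Angpt1. Of these, Vtn and Ndufa4l2 were higher in both fits (0.65 ± 0.17 and 0.49 ± 0.17, trend-removed 0.88 ± 0.16 and 1.32 ± 0.21).

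The ATP-sensitive potassium channel genes were split as well. Kcnj8, which encodes the Kir6.1 pore subunit that pairs with the Abcc9 product in pericytes and smooth muscle, stood at 46.6, 71.0 and 54.9 CPM in TET2KO and 106.5, 102 and 107.5 CPM in WT. Each TET2KO library was below each WT library. Kcnj8 fell in both fits (edgeR log2 fold change -0.87 ± 0.19, adjusted p = 0.0073, trend-removed -1.06 ± 0.18, adjusted p = 0.0041), whereas Abcc9 rose in both. The TPM ratio of Kcnj8 to Abcc9 was 0.62, 2.47 and 1.02 in TET2KO and 6.35, 6.32 and 7.62 in WT, a log2 difference of -2.54 as counted and -1.63 after trend removal (exact permutation p = 0.1 for each, the smallest possible). Kcnj11, which encodes the Kir6.2 pore subunit of cardiomyocyte channels, rose as counted (edgeR log2 fold change 0.94 ± 0.20, adjusted p = 0.0070), whereas the trend-removed -0.18 ± 0.11 did not pass. Abcc8, which encodes the sister receptor SUR1, rose as counted at 1.70 ± 0.37 (edgeR adjusted p = 0.0073), whereas the trend-removed -0.19 ± 0.20 did not pass.

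Smooth muscle, the other mural cell type, had 6 markers higher, 1 lower and 4 not past the test of 11 (median 0.88), and 4 higher and 3 lower after trend removal (median 0.35). Its summed level of 411 to 522 CPM in TET2KO overlapped that of 318 to 464 CPM in WT. Myh11, the smooth muscle myosin heavy chain, averaged 17.3 ± 11.7 CPM in TET2KO and 1.47 ± 0.32 CPM in WT (edgeR log2 fold change 3.54 ± 0.65, adjusted p = 0.0065, trend-removed 1.63 ± 0.34). Myocd, the co-activator of smooth muscle genes, averaged 21.6 ± 9.30 CPM in TET2KO and 4.71 ± 0.77 CPM in WT, and it too rose in both fits (2.19 ± 0.37, edgeR adjusted p = 0.0065, trend-removed 1.15 ± 0.21). Smtn, which encodes the actin-binding protein smoothelin, rose as counted at 1.35 ± 0.26 (edgeR adjusted p = 0.0065), whereas the trend-removed -0.26 ± 0.11 did not pass. The next genes were named after their values were seen. Tagln was the lower marker as counted (-1.25 ± 0.25, edgeR adjusted p = 0.0065, trend-removed -0.71 ± 0.16). Acta2, the most abundant of the list, passed in neither fit (-0.078 ± 0.30, trend-removed 0.35 ± 0.24). Synpo2 and Mylk were higher as counted and lower after trend removal.

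Genes that act on the ligands were taken in 2 groups, with median transcript lengths of 4104 nt for the proteases and 6478 nt for retention and co-receptors. In the length classes that hold these medians, 42.6% and 61.6% of all genes were higher as counted. Of 6 tested proteases of PDGF processing, 4 were higher and 2 did not pass (median 1.25), and after trend removal 2 were higher and 1 lower (median 0.11). Without WT replicate 2 or 3, 2 of the 6 passed as counted, where 6943 and 6141 of all genes passed, against 9037 with all 6 libraries. Furin, the convertase that cuts the PDGF-A and PDGF-B precursors, averaged 54.1 ± 28.0 CPM in TET2KO and 7.28 ± 0.30 CPM in WT (edgeR log2 fold change 2.89 ± 0.42, adjusted p = 0.0065, trend-removed 0.99 ± 0.14). Pcsk6, a related convertase, rose by 2.35 ± 0.36 (trend-removed 0.76 ± 0.15), and Pcsk7 by 0.74 ± 0.19, whereas its trend-removed -0.56 ± 0.18 passed in the opposite direction. Of 7 genes that retain PDGF-B at the vessel or act as co-receptors, 6 were higher and 1 did not pass (median 1.90), and after trend removal 2 were higher and 1 lower (median 0.25). Ndst1, which sulphates the heparan chains that hold PDGF-B, rose to 34.9, 8.04 and 23.1 CPM in TET2KO, against 3.07, 2.62 and 1.79 CPM in WT (edgeR log2 fold change 3.14 ± 0.53, adjusted p = 0.0065, trend-removed 1.14 ± 0.20). Nrp1, the co-receptor neuropilin, rose by 1.90 ± 0.37 (trend-removed 1.45 ± 0.29), and Hspg2, which encodes perlecan, by 2.77 ± 0.61, whereas the trend-removed 0.25 ± 0.13 did not pass.

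Downstream of the receptors, 14 of 21 signal relay genes were higher and 3 lower, with 4 not past the test (median 1.24), and 8 were higher and 4 lower after trend removal (median 0.35). The median transcript length of this list was 4586 nt, in a length class where 51.3% of all genes were higher as counted. Crkl, an adaptor, averaged 17.5 ± 6.63 CPM in TET2KO and 3.51 ± 0.70 CPM in WT (edgeR log2 fold change 2.31 ± 0.33, adjusted p = 0.0065, trend-removed 1.47 ± 0.20). Pik3r1, the regulatory subunit of PI3-kinase, rose by 1.77 ± 0.27 and Stat3, a transcription factor, by 2.30 ± 0.36 (trend-removed 0.81 ± 0.16 and 0.68 ± 0.15). Of 11 negative regulators of the receptors 7 were higher and 1 lower, and 3 did not pass (median 1.45), with 5 higher and 6 not past the test after trend removal (median 0.72). Their median transcript length of 4195 nt lay in the same length class. Among these regulators Cblb, a ubiquitin ligase, rose by 1.83 ± 0.37 (trend-removed 0.75 ± 0.23). Ptpn1, a phosphatase, and Sh2b3, an adaptor, rose by 1.45 ± 0.30 and 2.34 ± 0.48, whereas -0.029 ± 0.14 and 0.45 ± 0.20 after trend removal did not pass.

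Of 17 genes of other signals that recruit pericytes, 10 were higher and 1 lower, and 6 did not pass (median 0.95), and after trend removal 5 were higher and 3 lower (median 0.37). Their median transcript length was 4260 nt, in a length class where 51.3% of all genes were higher as counted. The counts of higher and lower genes of this list were 12 and 2 without TET2KO replicate 2, and 8 and 4 without it and with the trend removed. As counted, 7 of the 17 passed without TET2KO replicate 3 or without WT replicate 3, against 11. Of all genes, 6133 and 6141 passed in those fits, against 9037 with all 6 libraries. S1pr3, a sphingosine phosphate receptor of mural cells, stood at 23.6, 5.67 and 16.5 CPM in TET2KO and 2.11, 2.33 and 1.34 CPM in WT (edgeR log2 fold change 2.97 ± 0.52, adjusted p = 0.0065, trend-removed 1.93 ± 0.36). Eng, the endothelial TGF-beta co-receptor endoglin, rose by 2.44 ± 0.45 (trend-removed 1.01 ± 0.24). Cxcr4, the receptor of the chemokine CXCL12, was the lower gene, at 6.69, 14.5 and 10.5 CPM in TET2KO and 28.2, 27.7 and 32.4 CPM in WT (edgeR log2 fold change -1.48 ± 0.28, adjusted p = 0.0065, trend-removed -0.74 ± 0.16).

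**Figure D5:**
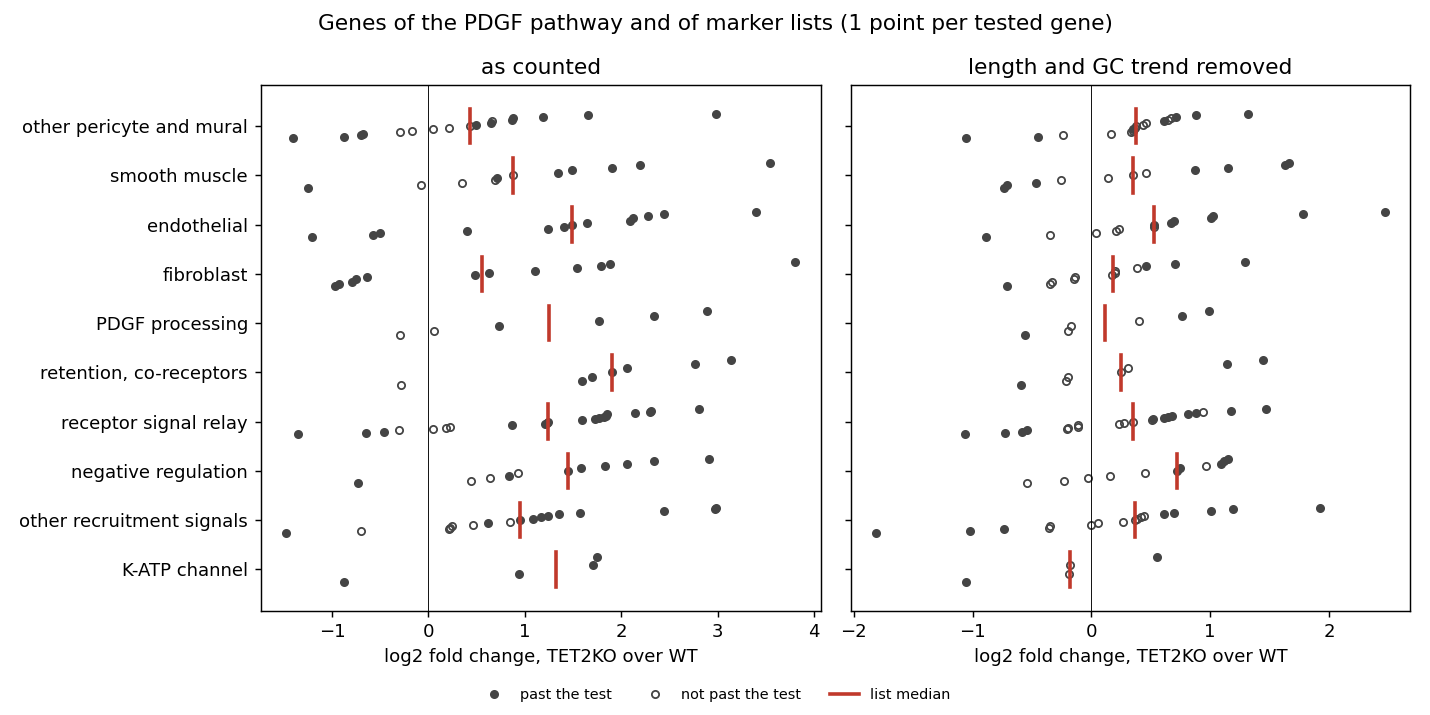
Log2 fold change of TET2KO over WT (horizontal axes, of differing range) of the tested genes of 10 lists, as counted (left) and with the length and GC trend removed (right), with filled points for genes past the test, open points for the rest and red bars for list medians. As counted the retention and co-receptor list has the highest median, 1.90, and after trend removal the list medians lie between -0.18 and 0.72.

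The genes whose log2 CPM profile over the 6 libraries, centred on its mean, was closest to each of the 8 were taken from 12682 tested genes by the root mean square (RMS) difference. Pdgfb was closest to Aplp2 (RMS 0.074), Acvr1b (0.075) and Supt5 (0.083). Pdgfrb was close to Abca2 (0.067) and Fbrs (0.10), and Abcc9 to Patz1 (0.043), Lrp6 (0.046) and Sntb2 (0.046). Cspg4 had Tril (0.12) and the endothelial gene Vwf (0.12) near to it. Pdgfra had Lrrc58 (0.055), Nr2f2 (0.069) and Mir6236 (0.073). The nearest profiles to Pdgfa were Lsm11 (0.031), Srrt (0.044) and Haus6 (0.048), and those to Pdgfd were Nr1h3 (0.054), Tmem192 (0.060) and Exosc5 (0.069). Pdgfc, the gene with the fewest reads over all libraries, had no profile closer than Aqp4 (0.14), Abhd1 (0.15) and Dqx1 (0.17). Among the 8 genes themselves the closest pair was Pdgfb and Abcc9 (0.25), followed by Pdgfra and Cspg4 (0.32), and the farthest was Pdgfd and Pdgfrb (2.25). With 6 libraries in 2 groups, a small RMS says that genes share their group difference and the position of TET2KO replicate 2.

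The authors' deposited table gave the same signs for all 8 genes as the counted fit. An adjusted p below 0.05 stood beside 65% of the tested genes in the authors' deposited table, and beside 7 of the 8, all but Pdgfa (log2 fold change 0.51, adjusted p = 0.059). Pdgfc (-0.82, adjusted p = 0.031) and Cspg4 (1.24, adjusted p = 0.019) passed in the authors' deposited table and not in the edgeR fit as counted.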

How the data were processed

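Poly(A) RNA of the 6 hearts was sequenced as read pairs of 150 nt, with the same batch label on all, per the labels' protocols. DESeq2, featureCounts, STAR 2.5.2b, Subread 1.5.2 and Trimmomatic 0.36 are named in the submitters' processing notes, with GRCm38 and mm10 as builds. Annotation release and strand setting were not given in the sources used here. Deposited by the authors were raw counts per gene, TPM values, and a comparison table with log2 fold changes and p-values of TET2KO over WT. Its library columns are a normalised signal, which the authors made by dividing counts by 1 size factor per library, as their constant ratio to the deposited counts shows. Columns were matched by library name, with 0 left unmatched.

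The counts were tested with edgeR 4.0.16 (R 4.3.3), with TMM factors, filterByExpr and a robust quasi-likelihood fit on group alone. A standard error is the absolute log2 fold change divided by the root of F. Symbols are those of the count table (174 of 49315 IDs have none), and 48970 IDs matched GENCODE M21 for positions, lengths and GC. The trend was fitted per library on the length and GC of the longest transcript (mgcv 1.9.3, basis size 6 per axis, log2 CPM with a prior count of 2) and entered edgeR as offsets, for 14341 genes. Real differences that track length or GC are lost with technical ones. The edgeR fit as counted and the trend-removed fit on the longest transcript were tested on simulated data, and the alternatives were not. Alternatives were other scalings, no filter, DESeq2 1.42.0, limma 3.58.1 with voom or on log2(TPM + 1) and log2(TPM + 0.1), merged exon length, each library left out and a replicate block.

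Named by rule were the 8 genes, Tet2, the potassium channel list, the up to 3 tested genes with the smallest p of each other list, and the 3 nearest profiles of each of the 8 genes. A few genes that this rule names are not reported here. The 8 genes and the lists were chosen with earlier results of these data known. Of the 8 genes, 6 had a promoter window (7 windows) in the RefSeq table. Library totals were 30418909, 26810691 and 27514747 reads for TET2KO and 24280314, 26569073 and 22124844 for WT. Counts of every pair of replicates differed beyond sampling noise (chi-square per degree of freedom 13.1 to 297).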

Additional observations from a re-analysis of the deposited data

How the results depend on the processing

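Pdgfb and Abcc9 were higher and past the test in all 23 alternatives, and Pdgfrb in 22 of 23. The number of the 8 genes past the test was 4 to 8 as counted when 1 library was left out, with 1 to 2 lower, and 5 to 7 with the trend removed as well, with 2 to 3 lower. The count of lower genes among the 8 was 0 under total library size, log2(TPM + 1) and log2(TPM + 0.1), and 2 with DESeq2, with the trend removed, with merged exon length and with the replicate block plus trend removal. Total library size, log2(TPM + 1) and log2(TPM + 0.1) moved the median of all genes to 0.47, 0.41 and 0.64 and made 74.2%, 79.3% and 79.2% of calls higher, against 53.2% in the counted fit. They left 2270, 1866 and 1906 genes lower in all and 12, 10 and 10 lower among the listed genes, and log2(TPM + 0.1) gave 7277 higher. Trend removal gave 3142 genes higher, and 69 listed genes past the test with 46 higher, against 108 and 79 as counted. Leaving out 1 library gave 6133 to 11178 genes past the test as counted (3370 to 5928 higher, 2479 to 5250 lower) and 4029 to 8653 with the trend removed (1986 to 4127 higher, 2012 to 4526 lower), and as counted 16 to 32 listed genes lower (16 without TET2KO replicate 3, and 17, 19 and 17 without WT replicates 1, 2 and 3, against 29). Leaving out TET2KO replicate 3 or WT replicate 3 gave 2479 and 2771 genes lower as counted, against 4231. With the trend removed, 4029 genes passed without TET2KO replicate 3 and 4206 and 4245 without WT replicates 1 and 3, against 6629.

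Same-numbered libraries did not deviate together (r = 0.039, -0.23 and -0.013). With 3 libraries a group and TET2KO replicate 2 apart from the others, this cannot decide whether replicate numbers pair the samples. With the replicate block 7618 genes and 6 of the 8 passed, Cspg4 among them (1.16, edgeR adjusted p = 0.049). With the replicate block and trend removal 5714 genes passed, 2730 of them higher, and 66 listed genes, 43 of them higher.

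Tet2 missed the threshold at 0.27 with the trend removed, 0.38 with merged exon length and 0.27 with block and trend, and with 1 library left out lay between 1.27 and 1.69 as counted, past the test each time, and between 0.18 and 0.36 with the trend removed. In the order trend removed, merged exon length, and block with trend, the log2 fold changes of genes that turned were -1.11, -0.92 and -1.07 for Cspg4 (with 1 library left out, 0.93 to 1.71 as counted and -1.26 to -0.76 with the trend removed), -0.26, -0.0033 and -0.26 for Smtn, -0.56, -0.37 and -0.58 for Pcsk7, and -0.19, -0.067 and -0.17 for Abcc8. With the trend removed, and with block and trend, they were -0.23 and -0.23 for Pdgfra (with 1 library left out, 0.88 to 1.33 as counted and -0.33 to -0.12 with the trend removed), -0.029 and -0.025 for Ptpn1, and -0.18 and -0.18 for Kcnj11. S100b, a glial marker, turned to 0.0083 with merged exon length. The cause of these changes was not tested. Of the 8 genes, Pdgfc had the fewest reads over all libraries, 47 to 137 per library.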

Other observations

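Marker genes of other cell types are given here one by one. Cdh5, the gene of the junction protein VE-cadherin, stood at 215, 46.1 and 138 CPM in the libraries labelled TET2KO and 12.6, 15.0 and 10.2 CPM in those labelled WT (edgeR log2 fold change 3.40 ± 0.53, adjusted p = 0.0065, trend-removed 2.47 ± 0.36). Pan-endothelial markers had 7 of 13 higher and 1 lower after trend removal. Tie1, an endothelial receptor kinase, and Pecam1, an endothelial adhesion molecule, rose in both fits (2.27 ± 0.36 and 1.41 ± 0.23, trend-removed 0.53 ± 0.13 and 1.03 ± 0.16). Fibroblast markers had 7 of 12 higher and 5 lower as counted (Tcf21, Dcn, Lum, Dpt and Mfap5). After trend removal 3 were higher, 1 was lower and 8 did not pass. Among them, Fbln1, the matrix protein fibulin, averaged 42.7 ± 14.6 CPM in TET2KO and 14.6 ± 0.57 CPM in WT (edgeR log2 fold change 1.54 ± 0.27, adjusted p = 0.0065, trend-removed 0.46 ± 0.13). Ddr2, a collagen receptor, rose by 1.89 ± 0.38 (trend-removed 0.70 ± 0.19), and Scara5 by 1.11 ± 0.21, whereas the trend-removed 0.39 ± 0.15 did not pass.

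Macrophage markers had 4 of 8 higher and 4 not past the test (median 0.46), and 2 higher and 1 lower after trend removal, with summed levels that overlapped (116 to 140 CPM in TET2KO, 116 to 127 CPM in WT). Without TET2KO replicate 2, 4 were higher and 1 lower both as counted and with the trend removed, and as counted 1 passed without WT replicate 3 and 2 without TET2KO replicate 3, WT replicate 1 or WT replicate 2. Without TET2KO replicate 3 or any 1 WT library, 6133 to 6943 of all genes passed as counted, against 9037 with all 6 libraries. Csf1r, the receptor of the macrophage growth factor CSF1, rose by 1.96 ± 0.42, whereas the trend-removed 0.46 ± 0.22 did not pass. Cd68 and Lyve1 rose in both fits (1.18 ± 0.30 and 0.64 ± 0.19, trend-removed 2.06 ± 0.37 and 0.91 ± 0.18). Of the cardiomyocyte markers, Myh6, a myosin heavy chain, and Actn2, of the Z-disc, rose (3.45 ± 0.65 and 1.38 ± 0.28, trend-removed 1.21 ± 0.26 and 0.59 ± 0.14), and Myl2, a myosin light chain, fell by 1.64 on the log2 scale (trend-removed -0.54 ± 0.13). After trend removal 5 of the 8 were higher and 1 lower. Schwann cell and glial markers had 3 of 7 tested, with 2 lower and 1 not past the test (none passed without TET2KO replicate 1, TET2KO replicate 3 or WT replicate 1), and a summed level of 6.72 to 8.11 CPM in TET2KO and 8.46 to 12.1 CPM in WT. In the fits where no glial marker passed, 6133 to 7284 of all genes did. S100b was lower as counted (-0.93 ± 0.29), and Mbp did not pass (0.71 ± 0.29). Of the platelet and red cell markers, Pf4 was lower as counted (-1.33 ± 0.22, trend-removed -0.015 ± 0.13, not past the test), and Hbb-bs and Hbb-bt, which encode beta-globin chains, were lower in both fits (-3.63 ± 0.81 and -3.33 ± 0.73, trend-removed -2.57 ± 0.59 and -2.28 ± 0.53). No antisense gene overlapping Pdgfc, Pdgfra or Abcc9 held more than 4 reads in a library.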
